A study of Rattus norvegicus with 16 samples.

Results

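Synovial tissue from rat knees injected with monoiodoacetate (MIA) was compared between rats given an inhibitor of fatty acid binding protein 5 (FABP5) and rats given vehicle. The comparison uses the 4 libraries titled MIA inhibitor and the 4 titled MIA vehicle, 8 of the 16 libraries of the series, chosen by their titles alone. Both groups received 2 mg of MIA in 50 µl of saline in the knee that was sampled, and the tissue was taken after 4 weeks. The other 8 libraries are from the contralateral, saline-injected knees of the same treatments, 4 with inhibitor and 4 with vehicle. The title of the series names FABP5 as the protein inhibited. The sources used here do not give the compound, its dose or schedule, or the strain, sex and age of the rats. Nor do the labels state that each library is a different animal. The p-values therefore reflect the spread among libraries, which may be technical.

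FABP5 is an intracellular carrier that brings fatty acids and related lipids, among them the endocannabinoid anandamide, to the enzymes and nuclear receptors that use them. Inhibitors of it are studied against pain because anandamide is broken down once it has been carried to its degrading enzyme. MIA blocks glycolysis, kills cartilage cells and is used in rats to model the pain and joint damage of osteoarthritis. The synovium, the tissue that lines the joint, holds fibroblasts, macrophages, vessels and fat, and in osteoarthritis it is a source of inflammatory cytokines and chemokines.

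The unit measured was the Ensembl transcript. The deposited files give an estimated read count, a TPM value (transcript abundance per library, which takes the transcript's length into account) and a length for each of 46726 transcripts, under identifiers that the sources used here do not pair with gene symbols. The gene of FABP5, the cytokines and the markers of synovial cell types were therefore not analysed here, and transcripts are described by their level, length and reads, with 4 given by identifier. Levels are in CPM, library-scaled counts after TMM, unless TPM is stated. In bulk tissue, fewer cells of a type and less RNA per cell cannot be told apart.

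Of the 8 MIA libraries, MIA inhibitor replicate 4 and MIA vehicle replicate 1 stood apart from the other 6. These 2 were the deepest, with 36668131 and 37063328 estimated counts against 21619501 to 31645407 in the other 6. They nonetheless had a count for the fewest transcripts, 25870 and 27254 against 28010 to 29851. Their 100 most abundant transcripts took 33.8% and 34.1% of the counts, against 25.7% to 31.5% in the others. The profile nearest to MIA inhibitor replicate 4 among all 15 other libraries was MIA vehicle replicate 1, and the reverse also held, with a root mean square difference of 1.46 in log2 CPM per transcript. MIA inhibitor replicate 4 lay 2.01 on average from the other inhibitor libraries. MIA vehicle replicate 1 lay 1.89 from the other vehicle libraries. In the inhibitor group replicate 4 was the library farthest from the mean of the other 3 for 50.6% of the transcripts tested, and in the vehicle group replicate 1 was for 53.2%.

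**Figure D1:**
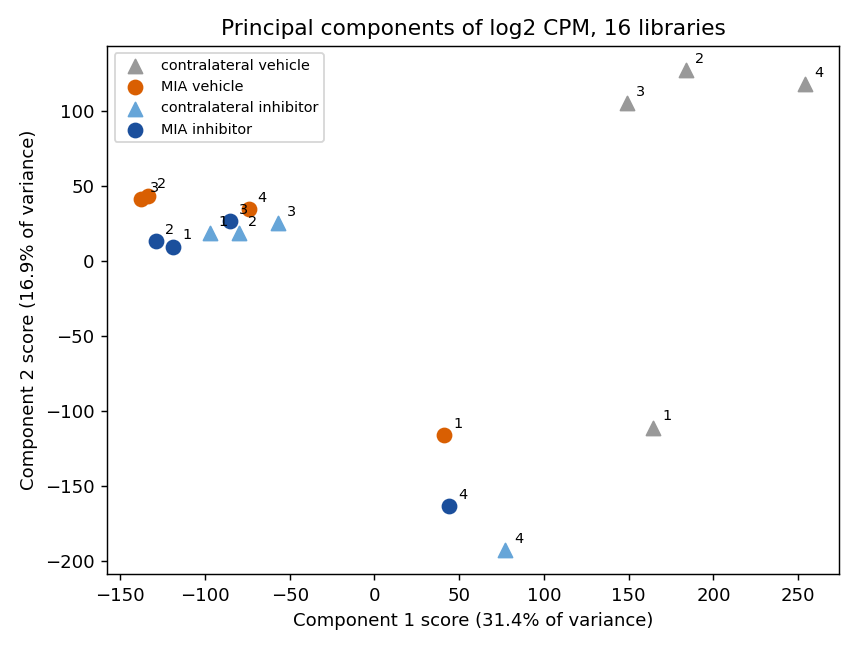
Scores of the 16 libraries on the first 2 principal components of log2 CPM, which held 31.4% and 16.9% of the variance. Circles are MIA knees, triangles contralateral knees, and numbers give the replicate. MIA inhibitor replicate 4 and MIA vehicle replicate 1 lie together at the lower middle, while the other 6 MIA libraries lie together at the left, the 3 inhibitor libraries at 9.75 to 26.9 and the 3 vehicle libraries at 34.8 to 43.8 on the second component.

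Between the treatments, 7 measures of the libraries were set side by side with a two-sided exact permutation test of 4 libraries against 4. The smallest p it allows is 0.0286, and no measure passed after Benjamini-Hochberg adjustment over the 7. With that adjustment a measure can pass only if most of the others also reach the smallest p. A single measure with fully separated groups could therefore not pass, and the lack of passes decides nothing for it. The first component had a mean score of -72.3 ± 79.7 (SD, n = 4) with inhibitor and -76.2 ± 83.6 (SD, n = 4) with vehicle (exact permutation p = 0.83, adjusted p = 0.83). Library totals were 26886300 ± 6937930 counts with inhibitor and 32225000 ± 3353500 with vehicle (SD, n = 4 each; exact permutation p = 0.2, adjusted p = 0.35). The mean length of the transcripts that the counts fell on was 3425 ± 210 bases with inhibitor and 3677 ± 143 bases with vehicle (SD, n = 4 each; exact permutation p = 0.114, adjusted p = 0.35). Pairs of libraries from different treatments differed by 1.71 on average (root mean square in log2 CPM, 16 pairs), pairs within the inhibitor group by 1.71 and pairs within the vehicle group by 1.59 (6 pairs each). Without the 2 libraries that stood apart, pairs from different treatments differed by 1.56 (9 pairs) and pairs within a treatment by 1.41 with inhibitor and 1.30 with vehicle (3 pairs each).

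No transcript passed the test between inhibitor and vehicle in MIA knees. Of 26956 transcripts tested, edgeR's quasi-likelihood test called 0, or 0%, at an adjusted p under 0.05. The smallest adjusted p was 0.0993, shared by 12 transcripts. At an unadjusted p under 0.05 there were 2335 transcripts, 8.66% of those tested, of which 1128 (4.18%) were higher with inhibitor and 1207 (4.48%) lower. Other tests of the same libraries called some. DESeq2 called 798 (2.96%), with 306 higher (1.14%) and 492 lower (1.83%) with inhibitor. Limma-voom with quality weights called 2061 (7.65%), with 973 higher (3.61%) and 1088 lower (4.04%). Both tools called 573 of the same transcripts. An option of the edgeR test that adjusts for small counts called 93 (0.345%), with 11 higher (0.0408%) and 82 lower (0.304%), and 90 of the 93 were among the calls of DESeq2. The edgeR fit of the 8 MIA libraries alone called 3 of 24889 tested (0.0121%), 1 higher (0.00402%) and 2 lower (0.00804%). Limma on log2(TPM + 1) called 7 of 21442 tested (0.0326%), 1 higher (0.00466%) and 6 lower (0.0280%).

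The log2 changes centred on 0.00, and 5% of transcripts lay below -1.55 and 5% above 1.30. Their median standard error was 0.46. The 95% interval of the change lay wholly within 2-fold in both directions for 9743 of the 26924 transcripts with an estimate (36.2%), and within 4-fold for 16354 (60.7%). For the 10570 others, a difference of over 4-fold in at least one direction was within the interval. Precision was lowest for rare transcripts. The interval lay within 2-fold for 65.8% of the transcripts at 10 to 100 CPM and 57.0% at 100 CPM or more, for 21.1% at 1 to 10 CPM and for 0.0400% below 1 CPM.

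**Figure D2:**
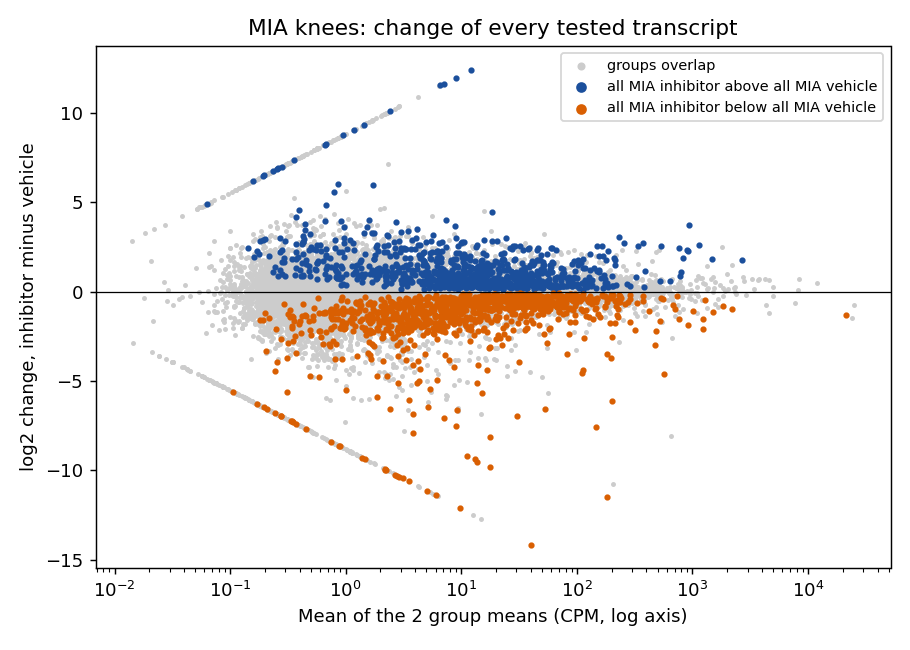
Log2 change between inhibitor and vehicle in MIA knees (vertical axis) against the mean level in CPM (horizontal log axis) for each tested transcript with a count in either group. Blue points are the 937 transcripts with all 4 inhibitor libraries above all 4 vehicle libraries, orange points the 1077 with all below, and grey points overlap between groups; the 2 slanted lines of points are transcripts with no count in one group, whose fitted change is no measure of size.

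The 4 transcripts named here had the smallest unadjusted p in each direction among transcripts whose groups did not overlap and whose mean reached 1 CPM in one of them. None was called by the edgeR test, and all 4 were called by DESeq2, by limma-voom and by the small-count option of edgeR. Their direction is part of how they were chosen, so the separation of their groups is a description.

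ENSRNOT00000043902.6 (4089 bases) was at 34.5, 36.5, 35.3 and 36.9 CPM in the inhibitor libraries 1 to 4 and at 21.3, 24.1, 22.6 and 19.7 CPM in the vehicle libraries. In CPM the libraries of each group lay close together, and both libraries that stood apart in their whole profile lay with their own group. The mean was 35.8 ± 1.09 CPM with inhibitor and 21.9 ± 1.84 CPM with vehicle (SD, n = 4 each). This is a log2 change of 0.71 ± 0.11 (SE; 95% interval 0.47 to 0.95; edgeR adjusted p = 0.0993). In TPM it was at 18.3 ± 3.25 with inhibitor and 11.99 ± 1.98 with vehicle (SD, n = 4 each). There the groups overlapped, with MIA inhibitor replicate 4 at 13.58 TPM and MIA vehicle replicate 2 at 14.25 TPM. In contralateral knees, whose libraries entered the choice only through the filter, the scaling and the shared estimate of the spread, it was also higher with inhibitor, at 43.7 ± 4.03 CPM against 32.1 ± 3.20 CPM with vehicle (SD, n = 4 each; log2 change 0.44 ± 0.11 SE, edgeR adjusted p = 0.0113). The lowest of those inhibitor libraries, 39.9 CPM, was above the highest with vehicle, 35.4 CPM.

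ENSRNOT00000097280.1 (3574 bases) was at 12.4, 10.2, 13.2 and 9.58 CPM with inhibitor and at 3.33, 1.03, 1.65 and 3.40 CPM with vehicle. The lowest inhibitor library was well above the highest vehicle library. The means were 11.3 ± 1.72 and 2.35 ± 1.19 CPM (SD, n = 4 each), a log2 change of 2.26 ± 0.37 (SE; 95% interval 1.48 to 3.05; edgeR adjusted p = 0.0993). In TPM these were 6.58 ± 2.01 and 1.37 ± 0.666 (SD, n = 4 each). In contralateral knees the groups overlapped, at 16.02 ± 5.13 CPM with inhibitor and 14.96 ± 4.33 CPM with vehicle (SD, n = 4 each; log2 change 0.10 ± 0.35 SE, edgeR adjusted p = 0.874). The 4 MIA vehicle libraries were the lowest of all 16 for this transcript, the contralateral ones ranging from 10.6 to 23.6 CPM.

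ENSRNOT00000018895.7 (6565 bases) was at 6.29, 6.54, 10.3 and 6.22 CPM with inhibitor and at 11.8, 54.5, 72.3 and 36.5 CPM with vehicle. Vehicle replicate 1 was far below the other vehicle libraries and just above the highest inhibitor library. The means were 7.35 ± 2.00 CPM with inhibitor and 43.8 ± 25.8 CPM with vehicle (SD, n = 4 each), a log2 change of -2.57 ± 0.41 (SE; 95% interval -3.46 to -1.69; edgeR adjusted p = 0.0993). In TPM these were 2.35 ± 0.981 and 14.7 ± 8.97 (SD, n = 4 each). There the groups overlapped, with MIA vehicle replicate 1 at 3.09 TPM and MIA inhibitor replicate 3 at 3.69 TPM. Without MIA vehicle replicate 1 the change was -2.90 ± 0.28 (SE) and was called (edgeR adjusted p = 0.00136). In contralateral knees the level was 4.33 ± 0.896 CPM with inhibitor and 3.54 ± 0.583 CPM with vehicle (SD, n = 4 each; log2 change 0.29 ± 0.40 SE, edgeR adjusted p = 0.642). In TPM, which has no TMM scaling, the contralateral inhibitor libraries lay higher without overlap, at 0.835 to 1.78 against 0.508 to 0.616.

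ENSRNOT00000075171.3 (5630 bases), the only one of the 4 with whole-number counts in all 16 libraries, was at 22.2, 20.8, 24.8 and 23.2 CPM with inhibitor and at 40.0, 55.5, 49.5 and 40.9 CPM with vehicle. Its groups stood well apart and vehicle replicate 1 was again the lowest of its group. The means were 22.8 ± 1.68 and 46.5 ± 7.41 CPM (SD, n = 4 each), a log2 change of -1.03 ± 0.17 (SE; 95% interval -1.39 to -0.67; edgeR adjusted p = 0.0993). In TPM these were 8.13 ± 1.76 and 17.2 ± 4.39 (SD, n = 4 each). It was called without MIA vehicle replicate 1 (edgeR adjusted p = 0.00877) and without contralateral vehicle replicate 1, which is in neither group of the comparison (edgeR adjusted p = 0.0470). In contralateral knees it was at 19.5 ± 1.42 CPM with inhibitor and 15.2 ± 3.91 CPM with vehicle (SD, n = 4 each; log2 change 0.35 ± 0.17 SE, edgeR adjusted p = 0.140). In TPM the contralateral inhibitor libraries lay higher without overlap, at 4.87 to 7.815 against 1.67 to 4.42.

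**Figure D3:**
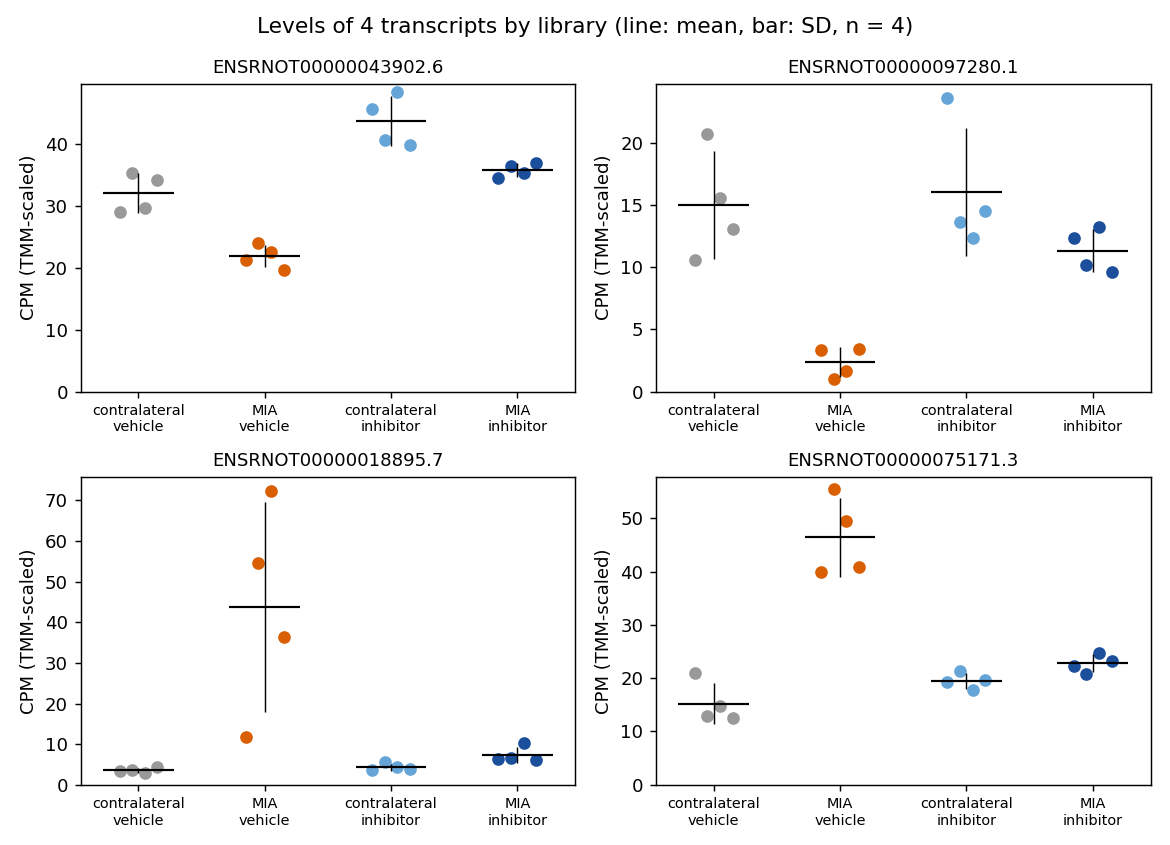
Level in CPM of the 4 named transcripts in each library of the 4 groups, with the mean (line) and SD (bar) of 4 libraries. The MIA vehicle libraries lie below all others for ENSRNOT00000097280.1 and above all others for ENSRNOT00000018895.7 and ENSRNOT00000075171.3, with MIA vehicle replicate 1 at 11.8 CPM near the highest MIA inhibitor library for ENSRNOT00000018895.7.

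Over all tested transcripts, all 4 inhibitor libraries lay above all 4 vehicle libraries for 937 transcripts, 3.48%, and below them for 1077, 4.00%. Of these, 538 and 582 had an unadjusted edgeR p under 0.05. Non-overlap was more frequent at higher levels. At 100 CPM or more, 5.22% of 1399 transcripts were higher without overlap and 6.72% lower, while below 1 CPM these shares were 2.25% and 1.95% of 5030. Among the 100 transcripts with the most TPM, 6 were higher and 4 lower without overlap, shares near those over all transcripts.

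Differences of at least 4-fold without overlap, on the scale of log2 CPM with a prior count of 2, were found for 199 transcripts lower with inhibitor (0.738% of those tested) and 161 higher (0.597%). These lists were chosen on their values in the 8 libraries, so their levels there are a description. The largest differences were mostly in the lower list, with 58 of 199 at 16-fold or more against 18 of 161 in the higher list. The lower list took 0.387%, 1.69%, 1.63% and 1.09% of the counts in the vehicle libraries 1 to 4 and 0.128% to 0.225% in the inhibitor libraries. Vehicle replicate 1 was thus the library with the least of them in its group. It was the vehicle library nearest to the inhibitor group for 141 of the 199, or 70.9%, and for 109 of the 161 in the higher list, or 67.7%. The higher list took 2.55%, 1.44%, 1.22% and 1.49% of the counts in the inhibitor libraries and 0.117% to 0.477% in the vehicle libraries.

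**Figure D4:**
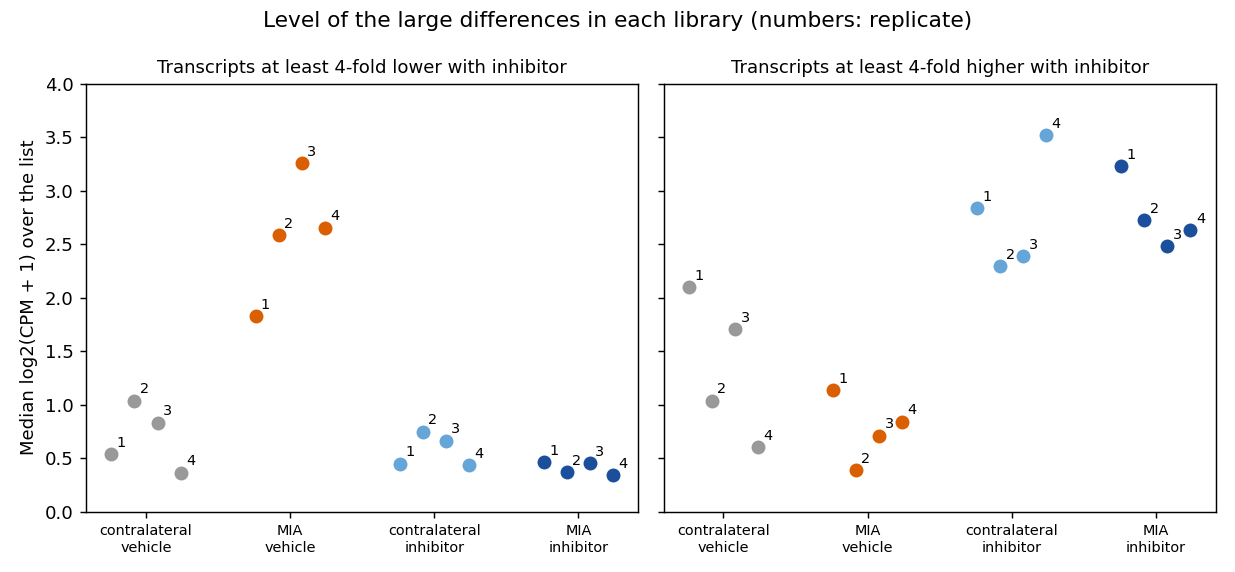
Median log2(CPM + 1) in each of the 16 libraries over the 199 transcripts at least 4-fold lower (left) and the 161 at least 4-fold higher (right) with inhibitor in MIA knees, numbered by replicate. In the left panel MIA vehicle replicate 1 lies at 1.83, below replicates 2 to 4 at 2.58 to 3.26. In the right panel the contralateral inhibitor libraries, at 2.30 to 3.52, lie at the level of the MIA inhibitor libraries.

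In the lower list, 17 of the 199 transcripts had a mean of 100 CPM or more in either group. The median level over the whole list was 2.55 to 8.56 CPM in the vehicle libraries. The transcript with the largest difference among those at 100 CPM or more in either group, of 487 bases, was at 2.18, 380, 898 and 187 CPM in the vehicle libraries 1 to 4. It was at 0.113, 0.0727, 0.216 and 0.0885 CPM in the inhibitor libraries, where it rested on 2 to 7 counts, and the test of it gave a log2 change of -11.5 ± 1.89 (SE; edgeR adjusted p = 0.104). Another, of 2602 bases, was at 14.3, 601, 702 and 283 CPM with vehicle and at 1.88, 13.8, 5.11 and 2.33 CPM with inhibitor (log2 change -6.11 ± 1.07 SE, edgeR adjusted p = 0.104). In both, vehicle replicates 2 to 4 were high and replicate 1 was far below them, though above every inhibitor library. A further transcript, of 3050 bases, followed the same order, at 9.97, 399, 551 and 214 CPM with vehicle and at 0 to 4.81 CPM with inhibitor (log2 change -7.59 ± 1.72 SE, edgeR adjusted p = 0.169). In the 8 contralateral libraries these 3 transcripts were at 0 to 2.83 CPM. The fourth, of 6825 bases, was at 28.2, 235, 353 and 249 CPM with vehicle and 1.21 to 22.5 CPM with inhibitor (log2 change -4.41 ± 1.203 SE, edgeR adjusted p = 0.229). It was lower with inhibitor in contralateral knees too, where it reached 33.1 CPM in vehicle replicate 1 (log2 change -4.27 ± 1.26 SE, edgeR adjusted p = 0.0258). The next, of 675 bases, was above 100 CPM in vehicle replicate 3 alone. It was at 2.72, 8.75, 371 and 36.65 CPM with vehicle and 0.524 to 1.45 CPM with inhibitor (log2 change -6.60 ± 1.55 SE, edgeR adjusted p = 0.182).

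In the higher list, 19 of the 161 transcripts had a mean of 100 CPM or more in either group. The median level over the whole list was 4.59 to 8.405 CPM in the inhibitor libraries. The largest difference at 100 CPM or more, for a transcript of 4690 bases, was between 526, 1598, 2109 and 2711 CPM with inhibitor and 168, 46.0, 149 and 163 CPM with vehicle (log2 change 3.72 ± 1.12 SE, edgeR adjusted p = 0.267). A transcript of 2621 bases was at 627, 452, 381 and 201 CPM with inhibitor and at 106, 11.7, 47.0 and 34.0 CPM with vehicle (log2 change 3.06 ± 0.79 SE, edgeR adjusted p = 0.207). The latter was also higher with inhibitor in contralateral knees, at 254 to 529 CPM against 12.7 to 208 CPM (log2 change 2.26 ± 0.77 SE, edgeR adjusted p = 0.0463). A transcript of 5849 bases, at 484 to 963 CPM with inhibitor and 24.5 to 213 CPM with vehicle in MIA knees, had the opposite sign in contralateral knees (log2 change -1.62 ± 0.67 SE, edgeR adjusted p = 0.0927). For one of 1642 bases, vehicle replicate 1 at 811.5 CPM was close to the lowest inhibitor library at 896 CPM (log2 change 2.60 ± 0.68 SE, edgeR adjusted p = 0.213). These transcripts were picked for description after their values were seen.

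Of the 10 transcripts with the most TPM, 1 had groups that did not overlap in CPM. The 2 with the highest TPM, of 1545 and 204 bases, were at 21650 ± 1001 and 23040 ± 1409 TPM with inhibitor and at 17180 ± 2448 and 14520 ± 2645 TPM with vehicle (SD, n = 4 each). Their log2 changes on counts were 0.50 ± 0.41 and 0.73 ± 0.35 (SE; edgeR adjusted p = 0.964 and 0.605). The 3 longest of the 10 leaned the other way. That of 4687 bases was at 4045 to 8002 TPM with inhibitor and 9423 to 16940 TPM with vehicle, without overlap (log2 change -1.29 ± 0.49 SE, edgeR adjusted p = 0.410). Those of 4787 and 5825 bases had log2 changes of -0.75 ± 0.45 and -1.48 ± 0.80 (SE; edgeR adjusted p = 0.784 and 0.695). The transcript of 5825 bases, at 1826 to 7004 TPM with inhibitor and 11020 to 15920 TPM with vehicle, and that of 204 bases did not overlap in TPM, which has no TMM scaling, but did in CPM. The same held for one of 2036 bases, at 4248 to 7074 TPM with inhibitor and 8363 to 10830 TPM with vehicle (log2 change -0.63 ± 0.41 SE, edgeR adjusted p = 0.845). None of these 6 passed the test.

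Over all tested transcripts the change leaned with length by a small amount. The median log2 change was 0.05 under 1000 bases, 0.03 at 1000 to 2000 bases, 0.00 at 2000 to 4000 bases and -0.06 at 4000 bases or more. At 1000 to 2000 bases 4.18% of 6910 transcripts were higher without overlap and 3.20% lower, whereas at 4000 bases or more 2.62% of 7027 were higher and 4.45% lower. The median length was 3110 bases in the list at least 4-fold lower and 2309 bases in the list at least 4-fold higher, against 2681 bases over all tested transcripts. Beside this stand the mean length of counted transcripts, given above, and the fragment length implied by the deposited effective lengths, 177 to 212 bases in the inhibitor and 188 to 200 bases in the vehicle libraries. The part of either in these differences was not tested.

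Reads that Salmon divides between transcripts could also bear on the comparison. Counts were whole numbers, within 1e-06, in all 16 libraries for 3187 of the 26956 tested transcripts, 11.8%. Of these, 14.5% had an unadjusted p under 0.05, 208 higher and 255 lower with inhibitor, against 7.88% of the 23769 others. Non-overlap was likewise more frequent among them, with 5.30% higher and 6.12% lower against 3.23% and 3.71% of the others. When these 3187 alone were tested, 520 had an unadjusted p under 0.05, and edgeR called 0 with a smallest adjusted p of 0.0534. Few transcripts were found in 1 group alone. Over 3 counts in all 4 vehicle libraries and none in any inhibitor library were found for 30 transcripts, 4 of them with whole counts, and the reverse for 19, of which 0 had whole counts. These were sought among all 46726 transcripts, and 25 of the 30 and 17 of the 19 were among those tested. An estimate of 0 may come from the division of reads, which was not tested.

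The number of calls differed with the libraries left out. Without MIA vehicle replicate 1, edgeR called 180 of 27834 transcripts tested (0.647%), 50 higher (0.180%) and 130 lower (0.467%) with inhibitor. The 130 lower ones had a median log2 change of -2.39, and 82 of them differed at least 4-fold. Without any other single library, edgeR called 0 or 1, MIA inhibitor replicate 4 among them with 0. The 4 libraries of the series that stood apart are replicate 1 of both vehicle groups and replicate 4 of both inhibitor groups. Without them, 369 of 27462 tested were called (1.34%), 141 higher (0.513%) and 228 lower (0.830%). With the 6 MIA libraries that remain then fitted alone, 653 of 25337 tested were called (2.58%), 267 higher (1.05%) and 386 lower (1.52%). All 4 named transcripts were called in the fit of the 12 libraries, and 3 of them in that of the 6. There ENSRNOT00000097280.1 was not called (edgeR adjusted p = 0.0519).

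The levels of the transcripts called without the 4 libraries are a description, since being called only without a library favours transcripts in which it lies toward the other group. For the 220 lower ones that were also tested with all 16 libraries, the median log2(CPM + 1) was 5.26, 5.52 and 5.06 in the vehicle libraries 2 to 4 and 3.59, 3.65 and 3.78 in the inhibitor libraries 1 to 3. The left-out vehicle replicate 1 was at 4.15 and the left-out inhibitor replicate 4 at 3.85. The former thus lay between the groups and the latter beside its own. In contralateral knees the same transcripts were at 3.31 to 3.69 with vehicle and 3.35 to 3.64 with inhibitor. For the 141 higher ones the median was 4.90 to 5.16 in the inhibitor libraries 1 to 3 and 3.92 to 4.03 in the vehicle libraries 2 to 4. The left-out vehicle replicate 1 was at 4.62, nearer to the inhibitor libraries, and the left-out inhibitor replicate 4 was at 4.71.

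**Figure D5:**
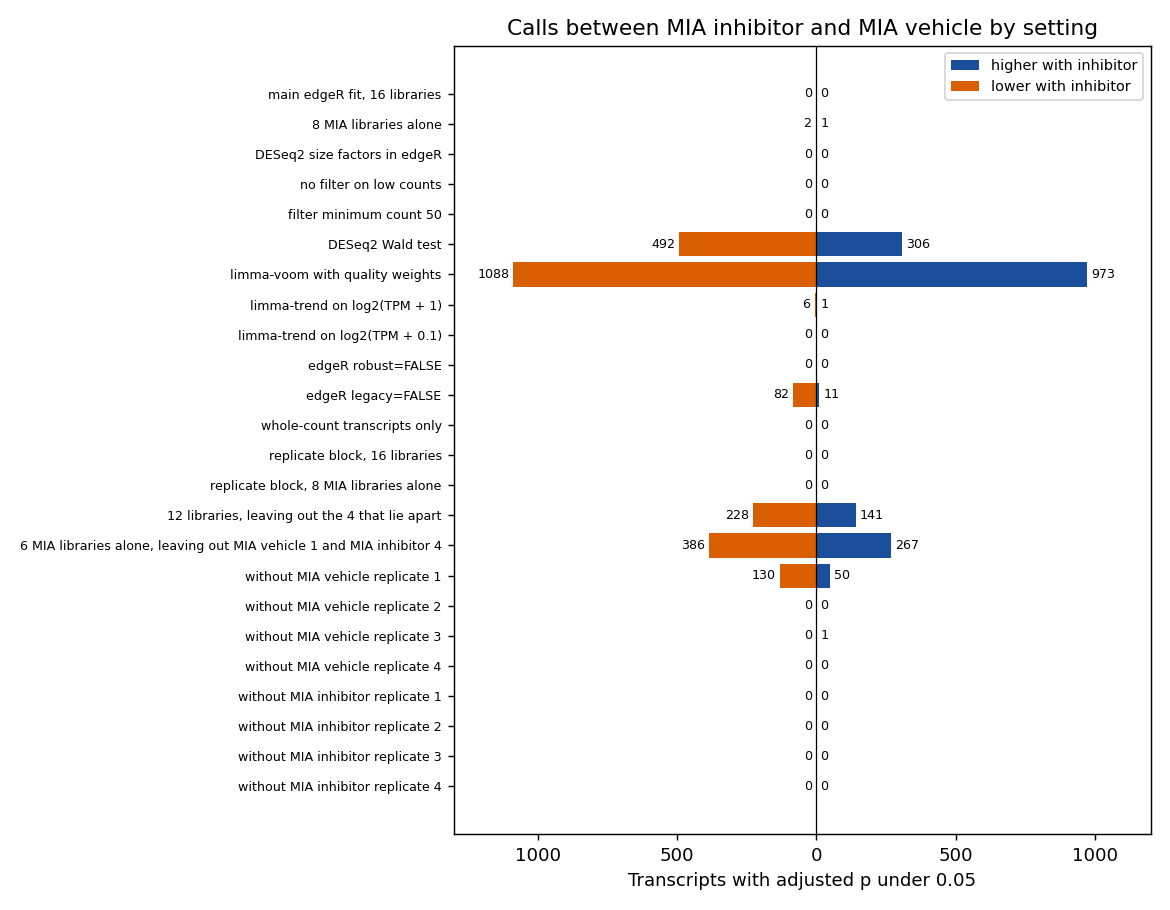
Transcripts with an adjusted p under 0.05 between MIA inhibitor and MIA vehicle under each setting, to the right those higher and to the left those lower with inhibitor. The edgeR fit of all 16 libraries called 0, DESeq2 798, limma-voom with quality weights 2061, and edgeR 180 without MIA vehicle replicate 1.

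Contralateral knees gave a second comparison of the same treatments with no library in common, though a rat may have given a knee to each. Of the 937 transcripts higher without overlap in MIA knees, 259 were also higher without overlap in contralateral knees, which is 27.6% of the former and 8.50% of the 3048 found there, where 11.3% of all tested transcripts were. Of the 1077 lower ones, 133 were also lower there, which is 12.3% of the former and 3.97% of the 3348 found there, where 12.4% of all tested transcripts were. The shared share was thus above the background for the higher and at the background for the lower transcripts, a difference that was not tested. The 2 lists with at least 4-fold differences showed the same order. In contralateral knees 38 of the 161 in the higher list were called higher with inhibitor and 1 lower by edgeR, where 12.1% and 11.8% of all transcripts were called. Of the 199 in the lower list, 19 were called lower and 8 higher. In the contralateral libraries the median level was 0.288 to 1.055 CPM over the lower list and 0.519 to 10.45 CPM over the higher list. Calls are harder to reach at such low levels, and the part of level in this contrast was not tested.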

How the data were processed

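Total RNA of synovial tissue was sequenced on an Illumina NextSeq after directional library preparation, per the labels' protocols. Salmon 1.4.0, fastp 0.20.1, DESeq2 1.30.0 and the build mRatBN7.2 are named in the submitters' processing notes, without their settings. The estimated counts (expected counts) deposited are the authors' Salmon values per transcript, unscaled, and the deposited TPM are scaled per library. Library totals were 15614902 to 37063328 counts.

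Counts were rounded. Transcripts passing edgeR's filterByExpr over the 4 groups were scaled by TMM and tested by the quasi-likelihood F test of edgeR (4.0.16; limma 3.58.1, R 4.3.3; robust, legacy=TRUE, the default of that version), two-sided, over all 16 libraries with 1 mean per group, contrast MIA inhibitor minus MIA vehicle. P-values were adjusted by Benjamini-Hochberg at 0.05. Standard errors are the absolute log2 change over the root of F. DESeq2 (1.42.0) and limma were alternatives. The small-count option is legacy=FALSE. The test was checked on simulated data in which the libraries of a group were drawn alike. That check does not cover libraries that stand apart. The named transcripts are the 2 per direction with the smallest unadjusted p among those without overlap whose mean reached 1 CPM in one group, a rule for the case that none is called. The comparison, lists and tests were chosen with earlier results of these data known. Planned gene lists and cell type markers were not analysed here, as symbols were not paired with the identifiers.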

Additional observations from a re-analysis of the deposited data

Results flagged for a closer look

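In 30 groups of 4 values examined for a single value far from the other 3, 5 were found, where chance gives about 1 in 20 groups. The groups share libraries and are not independent, so the count cannot be weighed against that rate. Of the 5 found, 4 concern the 2 libraries that stood apart. MIA vehicle replicate 1 had 27254 transcripts with a count, against 29506 to 29851 in its group, and a score of -116.1 on the second principal component, against 34.8 to 43.8. MIA inhibitor replicate 4 had 33.8% of its counts in its 100 most abundant transcripts, against 25.7% to 26.4%, and a score of -163.6 on the second component, against 9.75 to 26.9. The fifth was the level of ENSRNOT00000018895.7 in MIA inhibitor replicate 3, at 10.35 CPM against 6.22 to 6.54 CPM in the other inhibitor libraries.

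The difference between inhibitor and vehicle was not the same in MIA and contralateral knees for 3 of the 4 named transcripts, by edgeR's interaction test with adjustment over all tested transcripts. That test called 2668 of the 26956 transcripts tested. The interaction, MIA minus contralateral on the log2 scale, was 2.17 ± 0.50 (SE) for ENSRNOT00000097280.1 (edgeR adjusted p = 0.0176), -2.87 ± 0.57 for ENSRNOT00000018895.7 (edgeR adjusted p = 0.0102) and -1.38 ± 0.24 for ENSRNOT00000075171.3 (edgeR adjusted p = 0.00716). For ENSRNOT00000043902.6 it was 0.26 ± 0.16 (edgeR adjusted p = 0.316). These transcripts were chosen for a small p in MIA knees, which enters the interaction, so these tests are not independent of the choice.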

How the results depend on the processing

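The 0 calls of the edgeR fit remained 0 with DESeq2 size factors, no filter on low counts, a minimum count of 50, robust estimation switched off, whole-count transcripts alone, and limma-trend on log2(TPM + 0.1). The number called was 3 with the 8 MIA libraries alone (1 higher, 2 lower), 7 with limma-trend on log2(TPM + 1) (1 higher, 6 lower), 93 with edgeR's legacy=FALSE, 369 without the 4 libraries that stood apart, 653 with 6 MIA libraries, 798 with DESeq2 and 2061 with limma-voom. The cause of these differences was not tested. Leaving out each of the 16 libraries in turn gave 0 to 180 calls, with 0 in 12 of the 16 and 1 call each without MIA vehicle replicate 3, contralateral vehicle replicate 1 and contralateral vehicle replicate 3. The setting legacy=TRUE, listed as an alternative, is the default and so is the fit reported; legacy=FALSE was added after seeing the data. The 4 named transcripts kept their direction in all 121 values under the alternatives and were called in 23 of them. They were chosen for groups without overlap and a small p in these same libraries, so the kept direction is a description.

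With the sample number as a block, edgeR called 0 over 16 libraries and 0 over the 8 MIA libraries. In MIA knees the deviations of same-numbered inhibitor and vehicle libraries from their group means had correlations of -0.25, 0.26, 0.03 and -0.10. Of the 4 inhibitor libraries, 1 correlated best with its own number. The highest correlation, 0.52, was between the 2 libraries that stood apart, inhibitor replicate 4 and vehicle replicate 1. With so few libraries, these values cannot decide whether the numbers pair the treatments. Between the knees of a treatment the correlations of same-numbered libraries were 0.29, 0.15, 0.16 and 0.51 with inhibitor and 0.24, 0.08, 0.10 and 0.02 with vehicle. With a block for each treatment and number, added after seeing the data, the interactions kept their calls, at 2.30 for ENSRNOT00000097280.1 (edgeR adjusted p = 0.0499), -2.63 for ENSRNOT00000018895.7 (edgeR adjusted p = 0.0365) and -1.40 for ENSRNOT00000075171.3 (edgeR adjusted p = 0.0287). The fit with this block called 2957 of the 26956 transcripts tested.

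Of the 7 library measures, 3 changed sign when a MIA library was left out. The difference, inhibitor minus vehicle, was -34.8 to 43.1 for the first component score, -68.3 to 15.8 for the second and -0.0998 to 0.309 percentage points for the share of counts in whole-count transcripts. No measure passed in any setting, though 4 against 3 libraries cannot reach 0.05. With 4 against 4, a single measure alone cannot pass the adjustment either. Transcripts below 1 CPM, whose median SE was 1.46, were the least precisely measured.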
